A study of Mus musculus with 12 samples.

Results

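The knockdowns of Adarb1 and Zfr were set against each other directly, in cultured mouse cortical neurons carrying an shRNA against Adarb1 (group shAdar2) and in neurons carrying an shRNA against Zfr (group shZfr). Each group had 2 samples labelled as biological replicates, and these 4 samples were chosen from the 10 of the series by their labels, as 2 groups known to have similar Adarb1 levels. The comparison covered 14785 tested genes of the 23955 in the gene tables, and 1592 of 46689 A-to-I editing sites, those with 10 or more reads in each of the 4 samples. All samples were C57BL/6J neurons taken from cortices at embryonic day 16.5, infected with a lentivirus (pGreenPuro backbone) on the day after plating and collected 7 days after dissection. Every group, controls included, therefore carried a lentiviral hairpin. The other groups, with 2 samples each, carried an shRNA against Adar (shAdar1) or a control hairpin (shControl1 and shControl2). Per the series' design text, shControl1 is the control of shAdar1 and shAdar2, and shControl2 that of shZfr. The study did not plan shAdar2 against shZfr as a comparison of its own. What the 2 hairpins do and whatever else separates the groups of the 2 controls cannot be told apart in it, so results for gene groups and sites are also given net of each group's own control: (shAdar2 over shControl1) over (shZfr over shControl2).

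ADAR enzymes convert adenosine to inosine within double-stranded RNA, and inosine is read as guanosine in sequencing. Adar encodes ADAR1, which edits many repeat-derived duplexes and keeps the cell's own double-stranded RNA from being taken for viral RNA by sensors such as MDA5. Adarb1 encodes ADAR2, which is abundant in brain and recodes transcripts of ion channels and receptors. Zfr encodes a zinc-finger RNA-binding protein with a DZF domain, a domain shared with the proteins of Ilf2, Strbp and Zfr2. ZFR binds double-stranded RNA and is known as a regulator of editing.

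Libraries held between 1.58e+07 and 2.97e+07 expected counts, and shAdar2 replicate 1, the sum of 3 libraries labelled as technical replicates from RNA of the same neurons, held more than any other sample. Nothing in the labels says beyond the words biological replicate whether the 2 samples of a group came from separate cultures, so the p-values measure the spread between these samples. Of 11188 well-covered genes, 481 (4.30%) lay over 2-fold apart between the 2 shAdar2 samples, against 7 (0.0626%) between the 2 shZfr samples, 231 in shAdar1, 109 in shControl1 and 18 in shControl2. The shZfr samples were thus the closest pair. Their chi-square was 2.28 per degree of freedom, against 21.3 to 57.5 between the 3 technical libraries of shAdar2 replicate 1. They were kept as 2 samples as labelled, and whether they came from separate cultures was not tested. Technical library 1-2 of shAdar2 replicate 1 stood apart from the other 2: 63 genes lay over 2-fold above both of them and 55 below, against 3 above and 5 below for library 1-1 and 3 above and 11 below for library 1-3. The chi-square was 57.5 between libraries 1-1 and 1-2, and 42.6 between library 1-1 and shAdar2 replicate 2. This measure grows with depth, and replicate 2 was the shallower library. The correlation of log2 CPM was higher for the first pair (0.968) than for the second (0.944). Xist, the RNA of the inactive X chromosome, stood at 1249, 450.3 and 1036 CPM in libraries 1-1, 1-2 and 1-3, although the labels give the 3 a shared RNA. Medians without library 1-2 are given for the effectors, GABAergic markers, immediate early genes and microglia markers.

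The targeted genes stood at similar levels in both groups. Adarb1 stood at 48.4 and 52 CPM in shAdar2, against 49.2 and 45.5 CPM in shZfr. The groups overlapped, and all 4 values lay below the other 6 samples, which ran between 92 and 122 CPM. The log2 fold change was 0.08 ± 0.12 (SE), given without a test since the groups were picked with this likeness known. Zfr stood at 179 and 197 CPM in shAdar2, against 173 and 173 CPM in shZfr, and again all 4 values lay below the other 6 samples, which ran between 268 and 496 CPM. Its direct difference did not pass the test (log2 fold change 0.12 ± 0.11 (SE), adjusted p = 0.36, edgeR quasi-likelihood test). The shAdar2 samples thus had low Zfr as well as low Adarb1, and the shZfr samples low Adarb1 as well as low Zfr. Net of each group's own control, Zfr was higher in shAdar2 by 0.84 ± 0.16 (adjusted p = 0.0026) on the log2 scale and Adarb1 stood at -0.25 ± 0.17, where the shControl2 samples started with more Zfr (422 and 496 CPM) than the shControl1 samples (290.5 and 268 CPM). CPM are counts per 1000000 of the library size as scaled by TMM.

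Other genes of both families did differ. Adar was higher in shAdar2, at 207 and 188 CPM in shAdar2, against 139.7 and 133 CPM in shZfr (log2 fold change 0.54 ± 0.13 (SE), adjusted p = 0.0054), with no overlap. Net of the controls that difference was 0.11 ± 0.18 (adjusted p = 0.65). Zfr2, the neuronal paralogue of Zfr, stood at 82.5 and 52.9 CPM in shAdar2, against 22.7 and 20.7 CPM in shZfr. Both shAdar2 samples lay above all 8 others, and the groups did not overlap (log2 fold change 1.65 ± 0.20 (SE), adjusted p = 1.08e-04). Strbp, a DZF-domain RNA-binding protein, went the other way, with 243 and 292 CPM in shAdar2, against 1317 and 1295 CPM in shZfr (log2 fold change -2.29 ± 0.13 (SE), adjusted p = 2.06e-06). Both shZfr samples were above the other 8 samples and both shAdar2 samples below them. Ilf2, which encodes another DZF-domain protein, stood at 39.7 and 48.8 CPM in shAdar2, against 108 and 105 CPM in shZfr (log2 fold change -1.27 ± 0.12 (SE), adjusted p = 2.81e-05), likewise without overlap. For Zfr2, Strbp and Ilf2 the net difference passed the test in the same direction. Adarb2, which encodes a catalytically inactive ADAR relative, had 117 and 69.2 CPM in shAdar2, against 79.9 and 84.5 CPM in shZfr. Its shAdar2 value rested on the library, with 155, 54.5 and 146 CPM in libraries 1-1, 1-2 and 1-3 of replicate 1, and the group difference did not pass (log2 fold change 0.19 ± 0.26 (SE), adjusted p = 0.55).

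**Figure D1:**
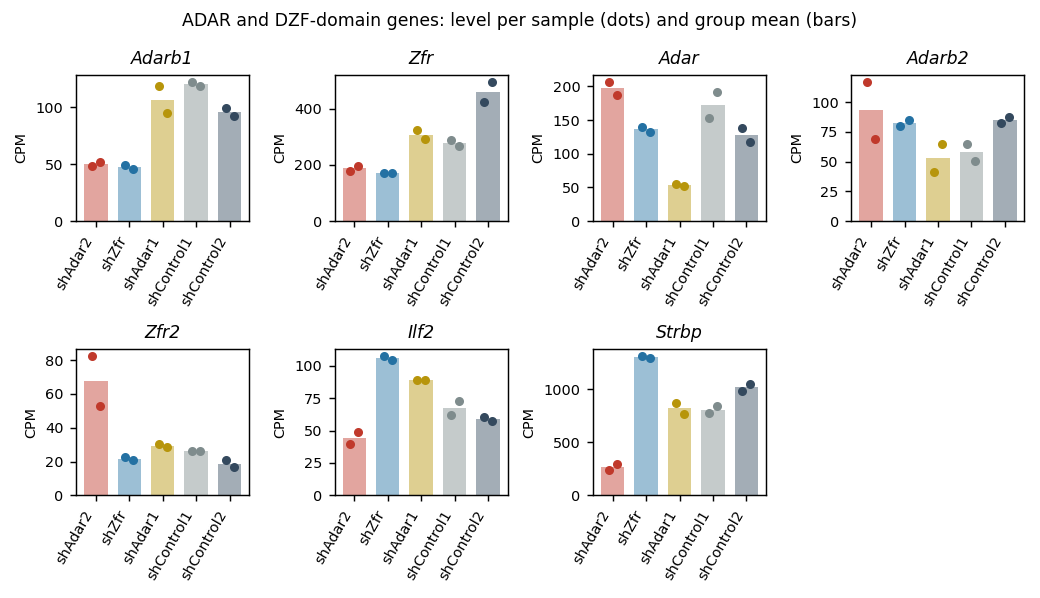
Level of 7 ADAR-family and DZF-domain genes in CPM (y axis) in each sample (dots) and as group mean (bars). Adarb1 and Zfr sit at like levels in shAdar2 and shZfr, below the other groups, while Zfr2 is highest in shAdar2 and Strbp and Ilf2 are highest in shZfr.

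Over all tested genes the groups were far apart. Of 14785 genes, 8942 (60.5%) passed the edgeR test at an adjusted p (Benjamini-Hochberg) below 0.05 and are called here, of which 4708 (31.8%) were higher in shAdar2 and 4234 (28.6%) lower. These shares are the background against which the counts in each gene group below are read. Of the called genes, 2553 were over 2-fold higher and 2175 over 2-fold lower. The median log2 fold change of all tested genes was 0.10, and 0.06 with the size factors of DESeq2. Net of each group's own control, 4500 of the 8942 genes were called in the same direction and 236 in the opposite one. Of the 2553 genes over 2-fold higher, 27.6% had shAdar2 outside the range of the other 6 samples with shZfr inside it, 9.44% had shZfr outside with shAdar2 inside, and 22.2% had both outside. For the 2175 genes over 2-fold lower these shares were 25.8%, 8.69% and 36.5%. Transcript length moved with the direction. From the shortest to the longest quartile of genes the median log2 fold change was 0.54, 0.18, -0.05 and -0.32, at median lengths of 1289, 2358, 3500 and 5647 bases. The median length is given for groups called mostly in one direction. Signs of the libraries moved with the groups too: the deposited length minus effective length, which reflects fragment length, was 193 to 215 bases in the shAdar2 libraries, against 230.0 and 235 in shZfr, and 209 to 234 in the other 6. The rRNA precursor Rn45s took 4.20% to 5.44% of counts in the shAdar2 libraries, against 2.20% and 1.81% in shZfr, and 1.67% to 4.76% in the other 6. The part of transcript length and of these signs in the group results was not tested.

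Genes of the antiviral response were higher in shAdar2. In this response double-stranded RNA is bound by sensors, interferon is made and secreted, its receptor signals through JAK kinases and STAT factors, and effector genes are transcribed. Of the 16 tested genes for sensors and first signalling steps, 11 were called higher in shAdar2, 1 lower and 4 did not pass, and the median log2 fold change was 1.6, at a median length of 3116 bases. Ifih1, which encodes the sensor MDA5, had 6.96 and 20.6 CPM in shAdar2, against 0.921 and 0.804 CPM in shZfr (log2 fold change 3.98 ± 0.51 (SE), adjusted p = 1.36e-04). Ddx58, which encodes RIG-I, had 13 and 40.7 CPM in shAdar2, against 3.16 and 2.81 CPM in shZfr (log2 fold change 3.15 ± 0.46 (SE), adjusted p = 3.09e-04). Both shAdar2 samples lay above both shZfr samples, with replicate 2 the higher one for each gene. Oas1a, an oligoadenylate synthetase gene, had no count in shZfr and was at least 18.5-fold higher in shAdar2, taking 3 counts over the group as the floor. Eif2ak2, which encodes the kinase PKR, had 14.2 and 38.5 CPM in shAdar2, against 11.9 and 11.9 CPM in shZfr (log2 fold change 1.13 ± 0.44 (SE), adjusted p = 0.047). Traf3, an adaptor of the pathway, was the one gene called lower, with 81.7 and 89.8 CPM in shAdar2, against 189 and 192 CPM in shZfr (log2 fold change -1.15 ± 0.10 (SE), adjusted p = 1.78e-05). Mavs, Tlr3, Ikbke and Tbk1 did not pass, with log2 fold changes of 0.83 ± 0.34, 1.55 ± 0.65, 0.95 ± 0.40 and -0.14 ± 0.12. Ifih1 and Ddx58 passed net of controls too. Oas1a had 0 CPM in every control sample as well, so its net difference could not be estimated (8.98 ± 15546 on the log2 scale, adjusted p = 0.9999). Ifnb1, which encodes interferon beta, was below the filter with 6 and 0 counts in shAdar2 and 0 and 0 in shZfr.

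Of the 11 tested genes for interferon receptors and JAK-STAT signalling, 9 were called higher in shAdar2, 1 lower and 1 did not pass, and the median was 1.92, at a median length of 2449.7 bases. The receptor chains split: Ifnar1 had 77.5 and 78.8 CPM in shAdar2, against 142 and 138 CPM in shZfr (log2 fold change -0.84 ± 0.08 (SE), adjusted p = 3.00e-05), while Ifnar2 had 13.9 and 15.1 CPM in shAdar2, against 6.16 and 5.63 CPM in shZfr (log2 fold change 1.3 ± 0.16 (SE), adjusted p = 9.96e-05). Neither overlapped between groups. Jak1, a receptor-bound kinase, had 218 and 215 CPM in shAdar2, against 99 and 94.5 CPM in shZfr (log2 fold change 1.16 ± 0.09 (SE), adjusted p = 6.61e-06). Here the other 6 samples ran between 196 and 238 CPM, so shAdar2 was at their level and shZfr below it. Irf9, which encodes part of the factor that switches on interferon-stimulated genes, had 19.9 and 50.5 CPM in shAdar2, against 9.67 and 8.8 CPM in shZfr (log2 fold change 1.92 ± 0.36 (SE), adjusted p = 0.0013), with both shAdar2 samples above every other sample. Irf7, the amplifier of interferon transcription, had 513 counts in both shAdar2 samples together, against 2 in both shZfr samples, a ratio of 85.1 (counting interval 23.5 to 705) after scaling for depth. Usp18 and Socs1, which restrain the signal, were also called higher. Irf7 and Usp18 did not pass net of controls (2.59 ± 15.8 and 6.67 ± 3.45 on the log2 scale, adjusted p = 0.91 and 0.15). Both stood at 0.129 CPM or less in every control sample, so these net values are imprecise. Stat2 had 32.3 and 64 CPM in shAdar2, against 33.1 and 32.8 CPM in shZfr, and its shAdar2 replicate 1 lay beside shZfr (log2 fold change 0.54 ± 0.26 (SE), adjusted p = 0.1, not called).

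Of the 38 tested interferon-stimulated effectors, 33 were called higher in shAdar2, 0 lower and 5 did not pass, and the median was 4.25, or 4.07 with the genes that had no count in a group set at their bound. The median length was 2826 bases. The list was read against the 31.8% of all genes called higher, and it also holds Ifih1 and Adar. Of its 44 genes 5 (Ifi27l2a, Ifi44l, Mx1, Sp100 and Epsti1) fell under the filter on low counts and 1 was not in the files. Of the tested members, 12 of the 38 reached the filter's 0.423 CPM in fewer than 2 samples outside shAdar2, so they entered through the group where they are high and had to differ, and the count and median rest partly on the filter. Among 26 members that did not need shAdar2 to enter, 22 were called higher. Likewise, 4 of the 16 sensor genes, 2 of the 11 JAK-STAT genes, 3 of the 19 MHC class I genes and 6 of the 15 NF-kappaB genes below entered through shAdar2 alone. Oasl2, an antiviral oligoadenylate synthetase-like gene, had 26.9 and 107 CPM in shAdar2, against 0.23 and 0.302 CPM in shZfr (log2 fold change 7.94 ± 0.81 (SE), adjusted p = 3.50e-05). Both shAdar2 samples were far above all 8 others, which ran up to 0.516 CPM. Rsad2, which encodes viperin, had 15.6 and 53 CPM in shAdar2, against 1.55 and 0.653 CPM in shZfr (log2 fold change 4.96 ± 0.69 (SE), adjusted p = 2.21e-04). Gbp2, a guanylate-binding GTPase gene, had 6.06 and 7.69 CPM in shAdar2, against 0.575 and 0.503 CPM in shZfr, and here the 2 shAdar2 samples were close (log2 fold change 3.66 ± 0.38 (SE), adjusted p = 4.13e-05). Isg15, a ubiquitin-like modifier gene, had 491 counts in both shAdar2 samples together, against 1 in both shZfr samples, a ratio of 163 (counting interval 29.1 to 6450.4). Bst2, which encodes the virus tether tetherin, had 498 counts in both shAdar2 samples together, against 1 in both shZfr samples, a ratio of 165 (counting interval 29.5 to 6542). Xaf1 had no count in shZfr and was at least 22.9-fold higher in shAdar2. Oasl2, Rsad2, Gbp2 and Xaf1 passed net of controls. Isg15 and Bst2 did not (6.58 ± 4.61 and 6.37 ± 2.91 on the log2 scale, adjusted p = 0.28 and 0.11). Both stood at 0.258 CPM or less in every control sample, so these net values are imprecise. Not every member differed: Ifit2 had 7.74 and 14.8 CPM in shAdar2, against 12.6 and 10.7 CPM in shZfr and Cmpk2 17 and 20.1 CPM in shAdar2, against 19.5 and 17.9 CPM in shZfr, and for both the groups overlapped (-0.07 ± 0.41 and -0.02 ± 0.19 on the log2 scale), though Cmpk2 passed net of controls with 0.85 ± 0.27 (adjusted p = 0.031). Herc6, Trim21 and Isg20 did not pass either.

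The size of these differences varied between the shAdar2 libraries. Oasl2 stood at 37.5, 4.13 and 39.3 CPM in libraries 1-1, 1-2 and 1-3 of replicate 1, and Irf9 at 26.8, 11.3 and 22.2 CPM. Library 1-2 was thus the lowest of the 3, yet for both genes it was above both shZfr samples. Without library 1-2 the median of the effectors was 4.34. Summed over the effectors the level was 426 and 930.4 CPM in shAdar2, against 207 and 191 CPM in shZfr, and 113 to 249.9 CPM in the other 6 samples. Adar, a list member, gave 207 and 188 CPM of this in shAdar2 and 139.7 and 133 CPM in shZfr. In the other 6 samples it ran between 51.5 and 192 CPM, lowest in shAdar1, whose hairpin targets it. Adar thus made up much of every sum but that of shAdar2 replicate 2. Replicate 2 alone gave the highest sum. Net of the own controls the effectors had 24 called higher, 0 called lower and a median of 4.21, the sensors 9 called higher, 2 called lower and a median of 2.23 and the JAK-STAT genes 6 called higher, 1 called lower and a median of 1.35, so the direction was kept in each.

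**Figure D2:**
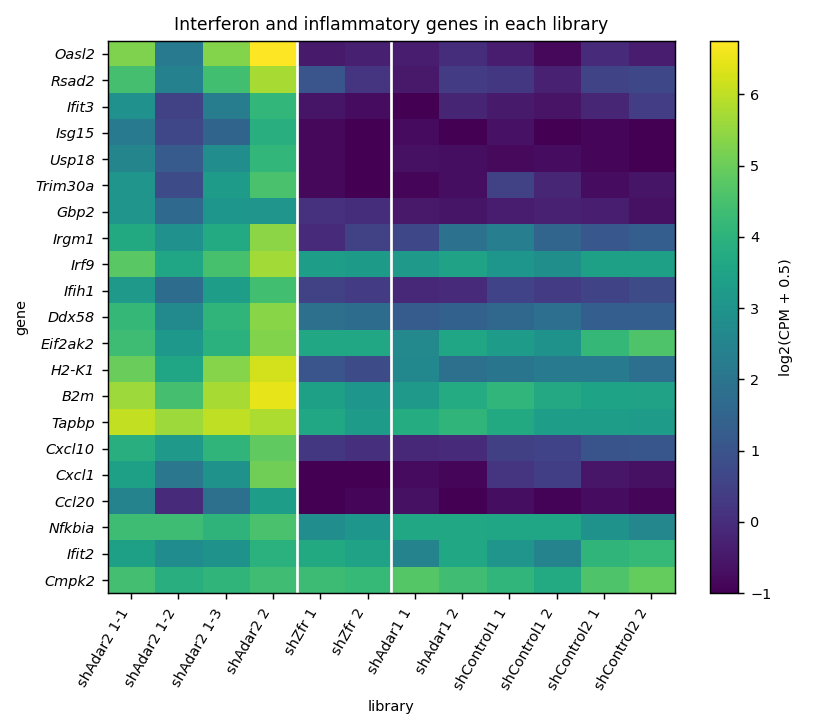
Level of 21 interferon and inflammatory genes (rows) as log2(CPM + 0.5) (colour) in each of the 12 libraries (columns), with white lines after the shAdar2 and after the shZfr libraries. The shAdar2 libraries are bright for most genes, with library 1-2 the dimmest of the 4 and shAdar2 2 the brightest; Ifit2 and Cmpk2 do not stand out in shAdar2.

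Promoters of some of these genes carry the interferon-stimulated response element that the transcription factor holding IRF9 binds. The letters GAAANNGAAA were searched on both strands in RefSeq promoters of 300 bases (250 before to 50 after the start, GRCm38.p6). They occurred in 3.44% of all 32851 promoters and in 2.92% of the 14025 promoters of tested genes. Of the 38 effectors, 31 matched the promoter table, with 38 promoters, of which 15 (39.5%) held the letters. Other lists also had shares above that of all tested genes. Among them were 4 of 11 (36.4%) promoters of sensor genes, 4 of 18 (22.2%) of MHC class I genes and 4 of 22 (18.2%) of ribosomal protein genes. Immediate early genes had 3 of 24 (12.5%), JAK-STAT genes 2 of 11 (18.2%) and respiratory chain genes 2 of 18 (11.1%). Several further lists lay above it with 1 match each, such as NF-kappaB genes (1 of 14, 7.14%). In axon genes 0 of 28 promoters held the letters. Matches may overlap within a run. Of 4 promoters shown, Isg15 (chr4:156200769-156201068, minus strand) holds 3 matches that overlap in 1 run. Ifit3 (chr19:34583279-34583578, plus strand) holds 2 apart from each other, and Bst2 (chr8:71537423-71537722, minus strand) holds 2 that overlap. Oasl2 (chr5:114896684-114896983, plus strand), the effector with the lowest adjusted p, holds 0. Capitals mark the matches.
Isg15: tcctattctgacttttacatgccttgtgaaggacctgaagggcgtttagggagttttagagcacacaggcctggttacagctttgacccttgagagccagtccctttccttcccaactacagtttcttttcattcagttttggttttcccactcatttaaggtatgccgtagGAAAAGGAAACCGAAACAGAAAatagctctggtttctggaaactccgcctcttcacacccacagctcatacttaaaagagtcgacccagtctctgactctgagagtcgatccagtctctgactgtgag
Ifit3: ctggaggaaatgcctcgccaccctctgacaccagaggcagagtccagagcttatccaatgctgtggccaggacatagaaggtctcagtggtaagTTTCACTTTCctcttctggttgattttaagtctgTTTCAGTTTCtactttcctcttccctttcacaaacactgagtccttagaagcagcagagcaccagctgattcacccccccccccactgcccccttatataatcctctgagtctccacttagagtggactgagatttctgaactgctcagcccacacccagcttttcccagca
Bst2: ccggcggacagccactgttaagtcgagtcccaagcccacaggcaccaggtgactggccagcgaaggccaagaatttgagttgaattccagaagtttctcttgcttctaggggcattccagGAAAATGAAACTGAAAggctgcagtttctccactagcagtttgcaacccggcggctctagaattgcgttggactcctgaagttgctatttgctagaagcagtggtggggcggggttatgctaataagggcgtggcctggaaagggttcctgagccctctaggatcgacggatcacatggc
Oasl2: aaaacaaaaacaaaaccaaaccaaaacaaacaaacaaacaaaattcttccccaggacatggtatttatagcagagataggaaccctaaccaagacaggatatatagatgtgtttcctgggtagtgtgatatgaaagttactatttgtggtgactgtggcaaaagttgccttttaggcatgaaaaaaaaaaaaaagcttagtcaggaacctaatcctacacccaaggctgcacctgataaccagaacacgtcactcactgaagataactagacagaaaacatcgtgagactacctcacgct
A match describes these letters in this window and says nothing of binding. Ifit3 itself had 4.12 and 17 CPM in shAdar2, against 0.173 and 0.101 CPM in shZfr (log2 fold change 6.23 ± 1.05 (SE), adjusted p = 7.15e-04), with no overlap.

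MHC class I genes, which load and display peptides, followed the same direction. Of the 19 tested genes of this group, 15 were called higher in shAdar2, 1 lower and 3 did not pass, and the median was 2.53, at a median length of 1793 bases. H2-K1, a classical heavy chain, had 27.3 and 74.5 CPM in shAdar2, against 1.55 and 1.21 CPM in shZfr (log2 fold change 5.2 ± 0.52 (SE), adjusted p = 3.19e-05), and B2m, the light chain, 40.3 and 87.8 CPM in shAdar2, against 10 and 7.99 CPM in shZfr (log2 fold change 2.83 ± 0.36 (SE), adjusted p = 1.32e-04). Heavy-chain genes are near copies of each other, so their single values are uncertain. Tapbp, which encodes the peptide-loading factor tapasin, had 58 and 55.6 CPM in shAdar2, against 11.7 and 9 CPM in shZfr, with the 2 shAdar2 samples close (log2 fold change 2.46 ± 0.19 (SE), adjusted p = 7.53e-06). Nlrc5, the transactivator of the class, had 12 and 22 CPM in shAdar2, against 0.46 and 0.553 CPM in shZfr (log2 fold change 5.04 ± 0.51 (SE), adjusted p = 3.16e-05). In each of these 4 genes both shAdar2 samples lay above both shZfr samples. The general chaperone Canx was the one gene called lower, with 450.4 and 470.2 CPM in shAdar2, against 703 and 706 CPM in shZfr (log2 fold change -0.61 ± 0.12 (SE), adjusted p = 0.0013). The net comparison had 9 called higher, 2 called lower and a median of 2.21, and Canx did not pass net of controls (adjusted p = 0.88).

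NF-kappaB targets and chemokines were higher in shAdar2 as well. Of the 15 tested targets and chemokines, 14 were called higher in shAdar2, 0 lower and 1 did not pass, and the median was 3.32, at a median length of 2539 bases. Cxcl10, a chemokine that attracts T cells, had 12.8 and 28.7 CPM in shAdar2, against 0.69 and 0.553 CPM in shZfr (log2 fold change 5.05 ± 0.43 (SE), adjusted p = 1.27e-05). Icam1, an adhesion molecule, had 7.05 and 15.7 CPM in shAdar2, against 0.46 and 0.302 CPM in shZfr (log2 fold change 4.88 ± 0.59 (SE), adjusted p = 9.71e-05). Nfkbia, the feedback inhibitor of the pathway, had 18.1 and 22.8 CPM in shAdar2, against 6.5 and 7.84 CPM in shZfr (log2 fold change 1.51 ± 0.20 (SE), adjusted p = 1.55e-04). All 3 separated the groups without overlap. Vcam1 had 18.5 and 50.4 CPM in shAdar2, against 45.2 and 41.8 CPM in shZfr and did not pass (log2 fold change -0.36 ± 0.39 (SE), adjusted p = 0.44). Tnf, Il6 and Il1b were below the filter. Net of the own controls there were 6 called higher, 0 called lower and a median of 1.92. Icam1 and Nfkbia did not pass net of controls (adjusted p = 0.11 and 0.079).

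Cells other than neurons can carry these programmes, so their markers were read beside them. Of 10 microglia and macrophage markers, 5 passed the filter. Their summed level was 3.68 and 2.51 CPM in shAdar2, against 1.27 and 0.553 CPM in shZfr, and 0.182 to 1.38 CPM in the other 6 samples, all very low. Itgam had 88 counts in both shAdar2 samples together, against 0 in both shZfr samples, and was at least 9.74-fold higher after scaling for depth. Of the 5, 2 were called higher in shAdar2, 0 lower and 3 did not pass, the median was 3.31 (3.76 without library 1-2), and 3 of the 5 entered the filter through shAdar2 alone. Net of controls there were 1 called higher, 0 called lower and a median of 1.56. Over all 10 markers there were 619 and 56 counts in shAdar2, against 28 and 27 in shZfr and 7 to 45 in the other 6 samples. Most counts lay in shAdar2 replicate 1, which was also deeper, with 8.27e+07 expected counts against 1.58e+07 in replicate 2. Scaled for depth, the 5 tested markers summed higher in both shAdar2 samples than in any other sample. In replicate 2, Csf1r, C1qa, Aif1, C1qb and Cx3cr1 had 0, 0, 1, 4 and 5 counts and P2ry12, Itgam, Tyrobp and Ptprc 16, 10, 11 and 9. Tmem119 had 0 counts in all 4 samples. In library 1-2 alone the microglia list summed to 0.385 CPM. Of the 11 tested endothelial, mural and fibroblast markers, 4 were called higher in shAdar2, 1 lower and 6 did not pass. Col1a1, a fibroblast collagen, had 9.86 and 8.4 CPM in shAdar2, against 0.345 and 0.804 CPM in shZfr (log2 fold change 3.96 ± 0.53 (SE), adjusted p = 1.72e-04). Col1a1 did not pass net of controls (adjusted p = 0.6), and the list had 1 called higher, 0 called lower and a median of 0.60. Its sum was 29.4 and 27.9 CPM in shAdar2, against 11.2 and 11.5 CPM in shZfr, and 10.3 to 35.5 CPM in the other 6 samples. The part of these cells in the results was not tested. In bulk samples such as these, fewer cells of a type and less RNA per cell cannot be told apart.

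Genes of cholesterol synthesis were lower in shAdar2. Of the 23 tested pathway genes, 2 were called higher in shAdar2, 18 lower and 3 did not pass, and the median was -1.1, at a median length of 2748 bases. Cyp51, the lanosterol demethylase, had 60 and 97.5 CPM in shAdar2, against 255 and 255 CPM in shZfr (log2 fold change -1.7 ± 0.24 (SE), adjusted p = 2.65e-04). Nsdhl, a sterol dehydrogenase that acts after it, had 13.5 and 21.2 CPM in shAdar2, against 67.7 and 66.2 CPM in shZfr (log2 fold change -1.97 ± 0.29 (SE), adjusted p = 3.39e-04). Both genes separated the groups, with shAdar2 replicate 2 the nearer one to shZfr. Cyp51 ran between 251 and 466 CPM in the other 6 samples, so the shZfr samples lay within their range and the shAdar2 samples below it. Ebp and Pmvk were called higher, with 1.08 ± 0.27 and 0.46 ± 0.18 on the log2 scale, of which Pmvk did not pass net of controls (adjusted p = 0.45). Srebf2, which encodes the transcription factor of the pathway, had 192 and 203 CPM in shAdar2, against 166 and 169.9 CPM in shZfr and did not pass. The net comparison had 1 called higher, 7 called lower and a median of -0.71.

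Axon growth and guidance genes were lower in shAdar2 too. Of the 33 tested axon genes, 3 were called higher in shAdar2, 25 lower and 5 did not pass, and the median was -1.01, at a median length of 5920 bases. Map1b, a microtubule-associated protein of growing axons, had 1639.8 and 1888 CPM in shAdar2, against 16217 and 16203 CPM in shZfr (log2 fold change -3.2 ± 0.19 (SE), adjusted p = 2.64e-06). The other 6 samples ran between 8372 and 14653 CPM, so shZfr lay above and shAdar2 below all of them. Stmn2, a tubulin-binding protein of growth cones, had 349.8 and 391 CPM in shAdar2, against 1247 and 1259.6 CPM in shZfr (log2 fold change -1.76 ± 0.13 (SE), adjusted p = 5.21e-06). Gap43, a growth-cone phosphoprotein, had 223 and 232 CPM in shAdar2, against 567 and 567 CPM in shZfr (log2 fold change -1.32 ± 0.14 (SE), adjusted p = 4.00e-05). Receptors and ligands of guidance moved likewise, with Plxna4 at -1.87 ± 0.16, Epha4 at -1.59 ± 0.16, Robo1 at -1.14 ± 0.12 and Sema3a at -1.49 ± 0.15 on the log2 scale, each with both shAdar2 samples below both shZfr samples. Unc5a, Slit2 and Ntn1 were called higher. Net of the own controls there were 3 called higher, 22 called lower and a median of -1.19.

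Splicing regulators and RNA-binding proteins of neurons were lower in shAdar2 as well. Of the 40 tested genes of this kind, 1 was called higher in shAdar2, 31 lower and 8 did not pass, and the median was -0.85, at a median length of 3752 bases. Ptbp3, a relative of the splicing repressor Ptbp1, had 14.6 and 15.4 CPM in shAdar2, against 172 and 177 CPM in shZfr (log2 fold change -3.54 ± 0.15 (SE), adjusted p = 9.49e-07). The other 6 samples ran between 37.5 and 101 CPM, with shZfr above and shAdar2 below them. Srsf1, an SR splicing factor, had 164 and 211 CPM in shAdar2, against 638 and 641 CPM in shZfr (log2 fold change -1.77 ± 0.14 (SE), adjusted p = 1.02e-05). Elavl4, which encodes the neuronal protein HuD, had 77 and 94.2 CPM in shAdar2, against 262 and 287 CPM in shZfr (log2 fold change -1.68 ± 0.13 (SE), adjusted p = 6.70e-06). Nova2 was the one gene called higher (0.46 ± 0.10). Rbfox2 and Celf1 had log2 fold changes of -0.03 ± 0.10 and -0.05 ± 0.10 and did not pass. Net of controls there were 3 called higher, 14 called lower and a median of -0.30, and Nova2 did not pass net of controls (adjusted p = 0.22). Of the 10 tested lncRNAs, 1 was called higher in shAdar2, 5 lower and 4 did not pass. Malat1, which stays in the nucleus, had 15031 and 12872 CPM in shAdar2, against 36566 and 36685 CPM in shZfr (log2 fold change -1.39 ± 0.18 (SE), adjusted p = 1.50e-04). Its net difference was -0.17 ± 0.25 (adjusted p = 0.63), as the control of shZfr was itself higher than that of shAdar2, and the lncRNAs had 1 called higher, 1 called lower and a median of -0.21.

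Synaptic genes were mixed. Of the 20 tested genes for postsynaptic scaffolds and signalling, 14 were called higher in shAdar2, 3 lower and 3 did not pass, and the median was 0.62, at a median length of 4719 bases. Dlg4, which encodes PSD-95, had 544 and 384 CPM in shAdar2, against 149 and 152 CPM in shZfr (log2 fold change 1.63 ± 0.16 (SE), adjusted p = 2.87e-05), and Camk2a, a kinase of plasticity, 430.2 and 277 CPM in shAdar2, against 119 and 121 CPM in shZfr (log2 fold change 1.56 ± 0.26 (SE), adjusted p = 6.60e-04). Both genes were higher in every shAdar2 library than in both shZfr samples. Homer1 went the other way with 82.5 and 90.7 CPM in shAdar2, against 146 and 141 CPM in shZfr (log2 fold change -0.73 ± 0.11 (SE), adjusted p = 2.87e-04). Of the 20 tested presynaptic release genes, 8 were called higher in shAdar2, 7 lower and 5 did not pass. Syt4, a vesicle protein, had 234 and 274 CPM in shAdar2, against 1078 and 1099 CPM in shZfr (log2 fold change -2.1 ± 0.14 (SE), adjusted p = 4.51e-06), while Sv2a, another, had 349 and 222 CPM in shAdar2, against 121 and 118 CPM in shZfr (log2 fold change 1.26 ± 0.20 (SE), adjusted p = 4.21e-04). Net of controls the postsynaptic genes had 9 called higher, 0 called lower and a median of 0.66 and the presynaptic genes 6 called higher, 5 called lower and a median of 0.27, and Homer1 stood at 0.05 ± 0.15 (adjusted p = 0.8).

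Ionotropic glutamate receptor genes had no common direction. Of the 14 tested subunit genes, 6 were called higher in shAdar2, 4 lower and 4 did not pass, shares near those of all genes, with a median of 0.08. The net comparison had 7 called higher, 2 called lower and a median of 0.71. Gria2, the AMPA receptor subunit whose transcript ADAR2 recodes, had 769.8 and 727 CPM in shAdar2, against 2049 and 2066 CPM in shZfr (log2 fold change -1.46 ± 0.11 (SE), adjusted p = 8.43e-06). Both shAdar2 samples lay below both shZfr samples. The shControl1 samples had 818 and 788 CPM and the shControl2 samples 1532 and 1728 CPM, so the controls differed in the same direction. Its net difference was -0.44 ± 0.16 (adjusted p = 0.051). Grin1, the obligate NMDA receptor subunit, had 330.3 and 180.5 CPM in shAdar2, against 57.8 and 56.1 CPM in shZfr (log2 fold change 2.17 ± 0.29 (SE), adjusted p = 1.71e-04), and Grin2a 69.8 and 61.4 CPM in shAdar2, against 23.1 and 22.2 CPM in shZfr (log2 fold change 1.54 ± 0.20 (SE), adjusted p = 1.50e-04), both without overlap. Grin1 did not pass net of controls (adjusted p = 0.22). Of the 16 tested genes for GABA-A and glycine receptors, 6 were called higher in shAdar2, 5 lower and 5 did not pass. Glra2, a fetal glycine receptor subunit, had 13.4 and 12.1 CPM in shAdar2, against 76 and 73.3 CPM in shZfr (log2 fold change -2.54 ± 0.13 (SE), adjusted p = 1.47e-06). Glrb, the partner subunit, had 60.9 and 65.8 CPM in shAdar2, against 26.6 and 27.8 CPM in shZfr (log2 fold change 1.22 ± 0.14 (SE), adjusted p = 7.63e-05). Taken net of controls, the GABA-A and glycine receptor genes had 3 called higher, 2 called lower and a median of 0.22.

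Markers of neuron classes moved unevenly. Of the 15 tested excitatory markers, 3 were called higher in shAdar2, 7 lower and 5 did not pass, and net of controls there were 4 called higher, 4 called lower and a median of -0.12. Neurod6, a transcription factor of pyramidal neurons, had 60.5 and 55.1 CPM in shAdar2, against 309.8 and 318 CPM in shZfr (log2 fold change -2.44 ± 0.19 (SE), adjusted p = 8.75e-06) and Tbr1, a deep-layer transcription factor, 62.9 and 79.1 CPM in shAdar2, against 211 and 216 CPM in shZfr (log2 fold change -1.59 ± 0.12 (SE), adjusted p = 7.49e-06), of which Tbr1 did not pass net of controls (adjusted p = 0.055). Slc17a7, which encodes the vesicular glutamate transporter VGLUT1, was higher with 116 and 97.5 CPM in shAdar2, against 47.2 and 43.7 CPM in shZfr (log2 fold change 1.23 ± 0.17 (SE), adjusted p = 1.95e-04). Of the 17 tested GABAergic markers, 8 were called higher in shAdar2, 2 lower and 7 did not pass, with a median of 0.62, or 0.81 without library 1-2. Net of the own controls there were 6 called higher, 0 called lower and a median of 0.76. Gad1, which makes GABA, had 412 and 234 CPM in shAdar2, against 113 and 112 CPM in shZfr (log2 fold change 1.52 ± 0.25 (SE), adjusted p = 6.06e-04). Library 1-2 gave 234 CPM against 515 and 504 CPM in libraries 1-1 and 1-3, still above both shZfr samples. Pan-neuronal markers summed to 2928 and 2855 CPM in shAdar2, against 7930.5 and 8062 CPM in shZfr, and 4835 to 6538 CPM in the other 6 samples. Of the 10 tested pan-neuronal markers, 2 were called higher in shAdar2, 6 lower and 2 did not pass. Map2, a dendritic microtubule protein, had 688 and 886 CPM in shAdar2, against 4425 and 4501 CPM in shZfr (log2 fold change -2.5 ± 0.17 (SE), adjusted p = 4.08e-06). Net of controls the pan-neuronal markers had 0 called higher, 5 called lower and a median of -0.66.

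Proliferating progenitor markers were lower in shAdar2. Of the 14 tested progenitor markers, 0 were called higher in shAdar2, 11 lower and 3 did not pass, and the median was -1.59, at a median length of 2813 bases. Net of controls there were 0 called higher, 5 called lower and a median of -0.76. Mki67, made by cycling cells, had 14.3 and 42.2 CPM in shAdar2, against 351 and 323 CPM in shZfr (log2 fold change -3.62 ± 0.52 (SE), adjusted p = 2.70e-04). Fabp7, a radial glia marker, had 105 and 324 CPM in shAdar2, against 1079.7 and 978 CPM in shZfr (log2 fold change -2.27 ± 0.49 (SE), adjusted p = 0.0031), of which Fabp7 did not pass net of controls (adjusted p = 0.33). The list summed to 421 and 1084 CPM in shAdar2, against 2918 and 2766 CPM in shZfr, and 775 to 2127 CPM in the other 6 samples, so shZfr lay above all and shAdar2 replicate 1 below all. Glial markers varied within shAdar2. The astrocyte list summed to 856 and 1447 CPM in shAdar2, against 1423 and 1343 CPM in shZfr, and the oligodendrocyte-lineage list to 104 and 356 CPM in shAdar2, against 316 and 272 CPM in shZfr. Pdgfra, a marker of oligodendrocyte precursors, had 2.82 and 112 CPM in shAdar2, against 117 and 100.0 CPM in shZfr, so 1 shAdar2 sample was at the shZfr level and the other far below. Of the 13 tested astrocyte markers, 3 were called higher in shAdar2, 2 lower and 8 did not pass. Of the 8 tested oligodendrocyte-lineage markers, 0 were called higher in shAdar2, 1 lower and 7 did not pass. Taken net of controls, the astrocyte markers had 5 called higher, 0 called lower and a median of 1.5 and the oligodendrocyte-lineage markers 3 called higher, 0 called lower and a median of 1.77, so both medians turned positive.

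Activity-regulated immediate early genes, which neurons transcribe within minutes of firing, were mostly higher in shAdar2 but unequal between its samples. Of the 18 tested immediate early genes, 11 were called higher in shAdar2, 1 lower and 6 did not pass, and the median was 1.75, or 1.35 without library 1-2, at a median length of 3011 bases. Arc, a synaptic plasticity gene, had 67.4 and 11.3 CPM in shAdar2, against 2.01 and 1.86 CPM in shZfr (log2 fold change 4.36 ± 0.90 (SE), adjusted p = 0.0023), and Npas4, an activity-dependent transcription factor, 126 and 26.6 CPM in shAdar2, against 4.03 and 4.93 CPM in shZfr (log2 fold change 4.1 ± 1.00 (SE), adjusted p = 0.0057). The groups did not overlap, yet replicate 1 was several times replicate 2 for both genes, and within replicate 1 Arc stood at 29.4, 146 and 40.1 CPM in libraries 1-1, 1-2 and 1-3. Fos had 66.8 and 9.22 CPM in shAdar2, against 9.03 and 8.9 CPM in shZfr and Egr1 136 and 26.1 CPM in shAdar2, against 30.3 and 26 CPM in shZfr, and neither passed. The net comparison had 2 called higher, 1 called lower and a median of -0.18, and Npas4 did not pass net of controls (adjusted p = 0.69). The shControl1 samples were unequal here too. The list summed to 347 and 1322 CPM in shControl1, against 402 and 394 CPM in shControl2 and 1320 and 485 CPM in shAdar2. The net values of this list thus rest in part on shControl1 replicate 2.

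Stress genes did not share a direction. Of the 22 tested p53 targets, 8 were called higher in shAdar2, 5 lower and 9 did not pass. Net of controls the balance turned, with 1 called higher, 8 called lower and a median of -0.57. Ccng1, which encodes cyclin G1, had 50.7 and 66.1 CPM in shAdar2, against 443 and 458 CPM in shZfr (log2 fold change -2.95 ± 0.18 (SE), adjusted p = 2.59e-06). Trp53inp1 had 53.5 and 72 CPM in shAdar2, against 562 and 578 CPM in shZfr (log2 fold change -3.19 ± 0.20 (SE), adjusted p = 2.99e-06). Phlda3 and Bax, both proapoptotic, were higher, Phlda3 with 31 and 35.3 CPM in shAdar2, against 10.4 and 9.45 CPM in shZfr (log2 fold change 1.74 ± 0.17 (SE), adjusted p = 3.16e-05) and Bax with 49 and 40.7 CPM in shAdar2, against 18.6 and 16.1 CPM in shZfr (log2 fold change 1.38 ± 0.16 (SE), adjusted p = 6.19e-05). These 4 genes each separated the groups, though net of controls Phlda3 stood at -0.29 ± 0.24 (adjusted p = 0.36) and Bax at -0.38 ± 0.22 (adjusted p = 0.19). Cdkn1a, which encodes p21, was higher with 0.68 ± 0.16 in the direct comparison but lower net of controls with -1.06 ± 0.22 (adjusted p = 0.0046), and Mdm2 did not pass (0.13 ± 0.16). Of the 21 tested integrated stress and unfolded protein response genes, 8 were called higher in shAdar2, 5 lower and 8 did not pass. Ddit4, a stress-induced inhibitor of mTORC1 signalling, had 47.2 and 38 CPM in shAdar2, against 96.7 and 93.9 CPM in shZfr (log2 fold change -1.16 ± 0.13 (SE), adjusted p = 7.33e-05) and Manf, a secreted folding factor of the endoplasmic reticulum, 46.3 and 43 CPM in shAdar2, against 20.4 and 17.8 CPM in shZfr (log2 fold change 1.23 ± 0.15 (SE), adjusted p = 8.24e-05). Taken net of controls, the list had 3 called higher, 7 called lower and a median of 0.20, and Manf did not pass net of controls (adjusted p = 0.14).

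Short housekeeping genes were mostly higher in the direct comparison, but not net of controls. Of the 28 tested genes for cytosolic ribosomal proteins, 24 were called higher in shAdar2, 0 lower and 4 did not pass, and the median was 0.64, at a median length of 764.5 bases. Rplp1 had 250.3 and 187 CPM in shAdar2, against 60.2 and 60.1 CPM in shZfr (log2 fold change 1.86 ± 0.18 (SE), adjusted p = 2.81e-05). Of the 24 tested nuclear genes for oxidative phosphorylation, 17 were called higher in shAdar2, 2 lower and 5 did not pass, with a median of 0.73 and a median length of 1036 bases. Ndufa2, a complex I subunit, had 27.1 and 22.4 CPM in shAdar2, against 5.7 and 4.78 CPM in shZfr (log2 fold change 2.24 ± 0.20 (SE), adjusted p = 1.48e-05). Net of controls the ribosomal genes had 1 called higher, 10 called lower and a median of -0.34, and the respiratory chain genes 1 called higher, 4 called lower and a median of -0.22, and Ndufa2 did not pass net of controls (adjusted p = 0.12). Ribosomal protein genes have many near-identical pseudogenes, so their single values are uncertain. Of the 18 tested replication-dependent histone genes, 6 were called higher in shAdar2, 0 lower and 12 did not pass, and the median was 0.39, and net of controls there were 1 called higher, 0 called lower and a median of 0.08.

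**Figure D3:**
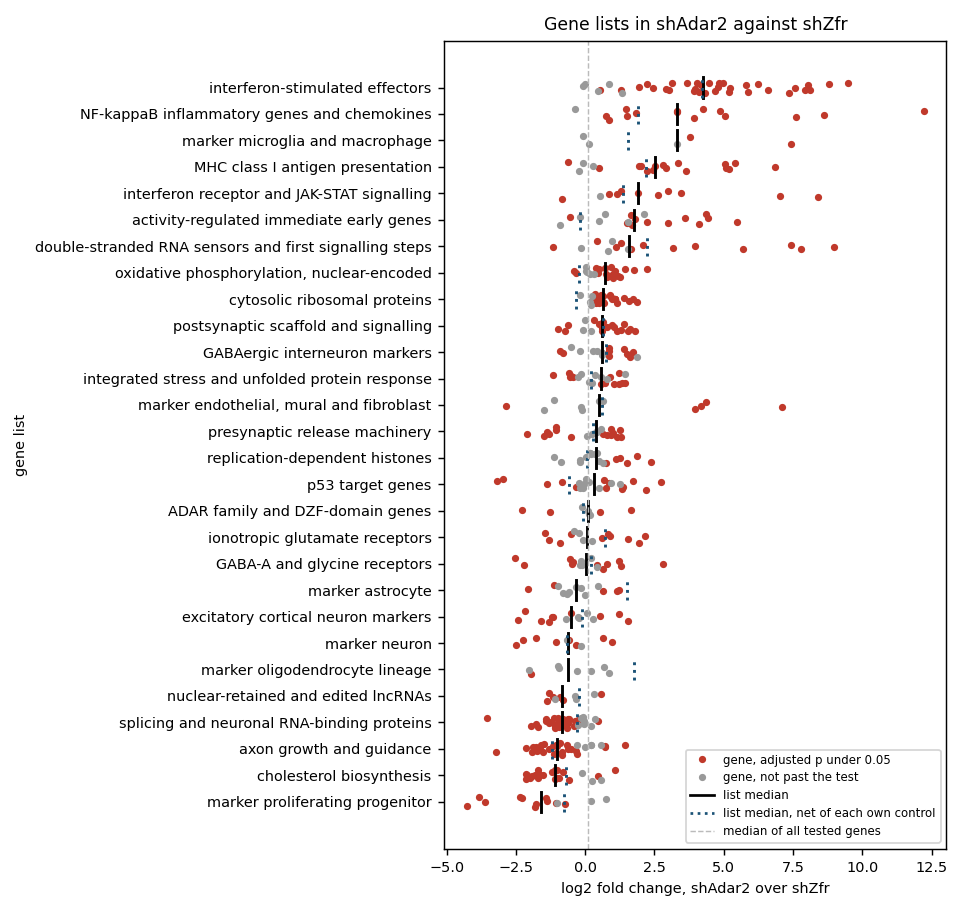
Log2 fold change of shAdar2 over shZfr (x axis) for the tested genes of each list (y axis), red where the adjusted p was under 0.05, with the list median (black), the median net of each group's own control (dotted blue) and the median of all tested genes (grey dashed). Interferon effectors lie farthest right at a median of 4.25 and progenitor markers farthest left at -1.59; ribosomal, respiratory chain and immediate early genes have net medians below 0.

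The genes with the largest fold changes among those at 5 CPM or more on average in the higher group, with groups apart, included 8 immune genes and a pseudogene on one side. Higher in shAdar2, Cxcl1, a neutrophil chemokine, had 6.96 and 33.2 CPM in shAdar2, against 0 and 0 CPM in shZfr and was at least 139.7-fold higher. Gbp9, a guanylate-binding GTPase gene, had 3.4 and 7.04 CPM in shAdar2, against 0 and 0 CPM in shZfr and was at least 49.6-fold higher. Both had no count in shZfr, and both were under 1 CPM in the other 6 samples. Trim30a had 972 counts in both shAdar2 samples together, against 1 in both shZfr samples, a ratio of 323 (counting interval 57.8 to 12757), and Usp18 729 counts in both shAdar2 samples together, against 1 in both shZfr samples, a ratio of 242 (counting interval 43.3 to 9571). Ccl20, a chemokine of lymphocytes, had 444 counts in both shAdar2 samples together, against 1 in both shZfr samples, a ratio of 147 (counting interval 26.3 to 5834). Bst2, Isg15 and Oasl2, given above, complete the immune genes. The pseudogene was Gm10052, with 194 and 178 CPM in shAdar2, against 0 and 0 CPM in shZfr. It stood at 0 in 5 of the other 6 samples and at 39.2 CPM in 1, and its values are uncertain. Outside shAdar2, Gbp9, Usp18, Bst2, Isg15 and Ccl20 reached the filter's 0.423 CPM in 0 samples, and Trim30a and Gm10052 in 1. These genes thus entered through the group where they are high. Groups apart was also a rule of this choice, so their separation is no further result. Cxcl1, Gbp9, Trim30a, Ccl20 and Oasl2 passed net of controls. Usp18, Bst2 and Isg15 did not (6.67 ± 3.45, 6.37 ± 2.91 and 6.58 ± 4.61 on the log2 scale, adjusted p = 0.15, 0.11 and 0.28), with controls at 0.258 CPM or less. Gm10052 had 0 CPM in shControl2 as in shZfr, so its net difference could not be estimated (adjusted p = 0.9999).

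On the other side, lower in shAdar2, Nefh, the heavy neurofilament subunit, had 2.2 and 2.18 CPM in shAdar2, against 49.2 and 50.7 CPM in shZfr (log2 fold change -4.51 ± 0.22 (SE), adjusted p = 1.47e-06), and Ahnak, a very large scaffold protein, 9.41 and 5.13 CPM in shAdar2, against 168 and 171 CPM in shZfr (log2 fold change -4.48 ± 0.24 (SE), adjusted p = 1.83e-06). The other 6 samples ran between 5.57 and 13.9 CPM for Nefh and between 11.3 and 20.7 CPM for Ahnak, so the shZfr samples stood above all others and the shAdar2 samples below. Gpr50, an orphan relative of melatonin receptors, had 2 counts in both shAdar2 samples together, against 328 in both shZfr samples. Its levels in the other 6 samples were between 0.29 and 0.479 CPM, so shZfr stood above them and shAdar2 below. Nid1, a basement membrane protein, had 0.883 and 1.09 CPM in shAdar2, against 21.5 and 17.4 CPM in shZfr (log2 fold change -4.34 ± 0.43 (SE), adjusted p = 2.81e-05). Gjc3, a glial connexin gene, had 0.0958 and 0.0545 CPM in shAdar2, against 11.3 and 10.5 CPM in shZfr (log2 fold change -6.9 ± 0.97 (SE), adjusted p = 2.30e-04), and Dmrta1, a transcription factor gene, 0 and 0.6 CPM in shAdar2, against 11.4 and 9.2 CPM in shZfr (log2 fold change -6.06 ± 1.28 (SE), adjusted p = 0.0026). The last 4, Depdc1a, Casc5, Neil3 and Esco2, are expressed in dividing cells and had -5.94 ± 0.56, -4.96 ± 0.51, -4.82 ± 0.47 and -4.79 ± 0.84 on the log2 scale. Each had both shAdar2 samples below all 8 others. The net differences of Gjc3, Dmrta1 and Esco2 did not pass the test (adjusted p = 0.086, 0.26 and 0.051).

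Editing was compared at the 1592 sites, which lie in 219 clusters of sites at most 10 kb apart. At 950 of them no edited read was seen in the 4 samples. Site positions are on mm9, for which no gene annotation or genome was at hand, so sites are given by position alone and no sequence is shown. A site was tested where the 4 samples held at least 5 edited and 5 unedited reads together, which left 228 sites (14.3%) in 104 clusters. Sites of a cluster share reads and transcripts and are not independent. Depth was unequal: the median number of reads at tested sites was 70 and 15 in the shAdar2 samples, against 68 and 79 in the shZfr samples. Reads at all listed sites came to between 4151 and 10951 per 1000000 expected counts in the shAdar2 libraries, against 31954.5 and 31079 in the shZfr libraries. Site levels in shAdar2 replicate 2 are thus the least precise, and intervals on them would cover counting error only.

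Editing levels were higher in shAdar2 at most tested sites in the direct comparison, but their mean net of controls, in percentage points, was not. The mean level was higher at 166 sites and lower at 62, with a median difference of 2.83 percentage points. The edgeR test on edited and unedited reads called 23 of 228 sites (10.1%), of which 20 (8.77%), in 16 clusters, were edited more in shAdar2 and 3 (1.32%) less. At an unadjusted p under 0.05 there were 51 more and 7 less. Of the 20, 17 did not overlap between groups, and of the 3, 2 did not, beside 85 (37.3%) and 24 (10.5%) of all tested sites apart in that direction. At the 227 tested sites with 10 reads in the controls as well, the mean level was 15.5% ± 0.817 in shAdar2 and 10.7% ± 0.110 in shZfr (SD, n = 2 each), against 22.6% in shControl1 and 15.9% in shControl2. The direct difference of 4.83 points thus stood beside a net difference of -1.81 points. A net difference in points depends on the starting level, which was higher in shControl1 than in shControl2. Whether its sign holds as a ratio to each control was not tested. Tested net of controls, 418 sites could be fitted, and edgeR called 0 higher and 4 lower. The calls were fragile. With either shZfr sample left out edgeR called 0 sites, with shAdar2 replicate 2 left out 1 site, and with shAdar2 replicate 1 left out 11, all higher.

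Among sites edited more in shAdar2, chr2:132135616 had 49.2% and 69.2% in shAdar2, against 24.7% and 21.3% in shZfr (log2 odds ratio 1.82 ± 0.41 (SE), adjusted p = 7.12e-04), over 130 and 13 reads in shAdar2 and 73 and 94 in shZfr. Here shControl1 had 66.4% and 56.6% and shControl2 36.4% and 39.4%, so the controls differed in the same direction. Site chr5:125936975 had 78.3% and 89.5% in shAdar2, against 53.1% and 53.4% in shZfr (log2 odds ratio 1.8 ± 0.46 (SE), adjusted p = 0.0038), with 7.06% and 3.74% in shAdar1, 73.3% and 71.1% in shControl1 and 55.2% and 51.3% in shControl2. In both sites the shAdar2 samples were higher without overlap. At chr5:125936975 the shAdar1 samples were by far the lowest, and the shAdar2 samples were above both controls. Site chr9:70399002 showed the widest gap, with 53.8% and 60% in shAdar2, against 9.52% and 9.68% in shZfr (log2 odds ratio 3.55 ± 0.93 (SE), adjusted p = 0.0038), but only over 13 and 10 reads in shAdar2 and 21 and 31 in shZfr. There shControl1 had 28.6% and 25% and shControl2 11.1% and 19.2%. Site chr5:135884725 had 32% and 52.6% in shAdar2, against 10.3% and 13.4% in shZfr, and chr12:72096116 30.2% and 64.3% in shAdar2, against 11.9% and 13.8% in shZfr. At chr5:135884725 shControl1 had 24.4% and 45.2% and shControl2 21.7% and 9.68%. At chr12:72096116 shControl1 had 50% and 46% and shControl2 27.9% and 28.7%, so the controls differed in the same direction there too. At chrX:53840821 the 2 shAdar2 samples did not resemble each other, with 4.41% and 58.3% in shAdar2, against 0% and 0% in shZfr, and the call rests on replicate 2 with 12 reads.

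Sites edited less in shAdar2 were few. Site chrX:71471989 had 3.66% and 6.67% in shAdar2, against 29% and 25.6% in shZfr (log2 odds ratio -3.01 ± 0.68 (SE), adjusted p = 7.12e-04), with 74.9% and 67.2% in shAdar1, 87% and 83.2% in shControl1 and 71.2% and 79.4% in shControl2. Both knockdowns were thus far below all other samples, and shAdar2 lower still. Site chrX:71472201, in the same cluster, had 1.36% and 3.12% in shAdar2, against 14% and 12.2% in shZfr (log2 odds ratio -3.01 ± 0.79 (SE), adjusted p = 0.0038), with 59.6% and 50% in shAdar1, 75% and 67.3% in shControl1 and 46.6% and 45.4% in shControl2. At both sites shAdar2 was the lowest group and shZfr the next. Site chr3:80510834, edited almost fully in the controls, had 83.3% and 94.3% in shAdar2, against 91.1% and 93.8% in shZfr (log2 odds ratio -1.14 ± 0.35 (SE), adjusted p = 0.016). Here the groups overlapped, and without shAdar2 replicate 1 the log2 odds ratio was 0.41. In the same cluster, and picked after their values were seen, chr3:80510830 had 14.8% and 3.92% in shAdar2, against 4.07% and 3.65% in shZfr and chr3:80510774 40.9% and 27.8% in shAdar2, against 19% and 10.5% in shZfr, both called higher. At chr3:80510830 the groups overlapped, with shAdar2 replicate 2 between the shZfr samples.

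Neighbouring sites could differ in opposite directions. The widest difference of any tested site downward was at chr11:75114079, where the levels were 17.9% and 18.2% in shAdar2, against 45.1% and 44% in shZfr (log2 odds ratio -1.85 ± 0.70 (SE), adjusted p = 0.068, not called), with 78.9% and 65.3% in shAdar1, 80.6% and 83.7% in shControl1 and 72% and 60.5% in shControl2. At 7 bases from it, chr11:75114086 had 87.7% and 85.7% in shAdar2, against 57.6% and 59% in shZfr (log2 odds ratio 2.26 ± 0.69 (SE), adjusted p = 0.016), with 1.47% and 10.9% in shAdar1, 46.2% and 68.3% in shControl1 and 35% and 47.7% in shControl2. The first site was lowest in shAdar2, and the second was highest in shAdar2 and lowest in shAdar1. The values at the second rest on 65 and 14 reads in shAdar2 and 59 and 61 in shZfr.

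**Figure D4:**
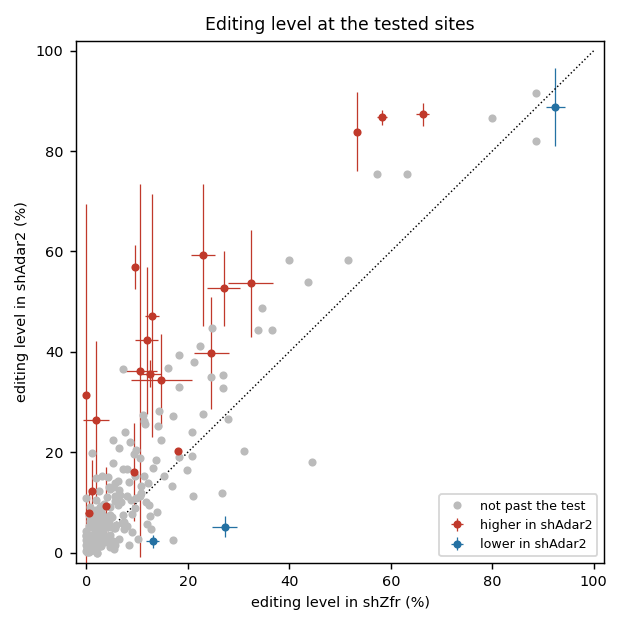
Mean editing level in percent at the 228 tested sites in shZfr (x axis) and shAdar2 (y axis), with the 20 sites called higher in shAdar2 in red and the 3 called lower in blue. Bars are the SD of 2 samples, and the dotted line marks equal levels; most called sites lie above it, several with wide bars.

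The shAdar1 samples, which took no part in the choice of sites, were set beside the called sites. Of the 20 sites edited more in shAdar2, 18 (90%) had both shAdar1 samples below both shControl1 samples, beside 161 of 227 (70.9%) of all tested sites with 10 reads. The 20 sites lay in 16 clusters and had a median shControl1 level of 38.6%, against 15.1% over all tested sites. The part of this higher starting level in the 90% was not tested. Sites at 10% or more in shControl1 were then split by shAdar1. At the 94 sites where shAdar1 was at less than 0.5 of the shControl1 level, the mean level was 19.3% ± 0.289 in shAdar2 and 12.8% ± 0.0870 in shZfr (SD, n = 2 each). At these sites shAdar1 averaged 5.10%, shControl1 27.9% and shControl2 16.3%. At the other 69 sites it was 18% ± 1.72 in shAdar2 and 15.2% ± 0.223 in shZfr, with shAdar1 at 29.8%, shControl1 at 38.3% and shControl2 at 29.8%. In both classes both shAdar2 samples lay above both shZfr samples. In percentage points against their own controls the order turned, with shControl1 above shControl2 in both classes. In the first class the difference from the own control was -8.64 points in shAdar2 and -3.41 points in shZfr, a net difference of -5.24 points. In the second class, at 67 sites with 10 reads in all 8 samples, it was -20.2 points in shAdar2 and -14.7 points in shZfr, a net difference of -5.50 points. The classes were cut with shControl1 values, which enter this net difference and can shift it, in the first class toward more negative values.

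**Figure D5:**
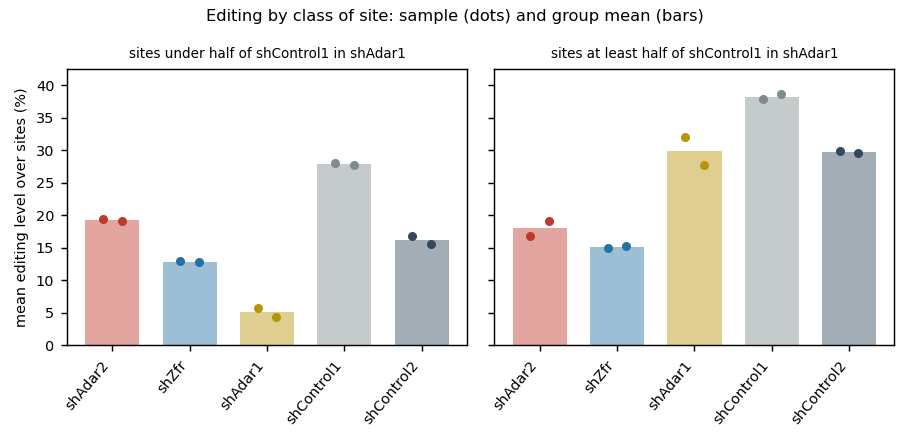
Mean editing level in percent (y axis) over 94 sites where shAdar1 had less than 0.5 of the shControl1 level (left) and 69 sites where it had more (right), per sample (dots) and as group mean (bars). shAdar2 lies above shZfr in both panels, and shControl1 above shControl2.

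Over all 1592 sites the share of edited reads was 6.16% and 6.49% in shAdar2, against 2.52% and 2.5% in shZfr, a difference of 3.81 points. The groups did not overlap (two-sided exact permutation p = 0.333, the smallest that 2 against 2 samples allow). Of the sites, 3 on chromosome 17 with over 2000 reads in each sample held 23.6% and 25.5% of all reads at these sites in shAdar2, against 7.01% and 6.75% in shZfr. Of these, chr17:39981537 had 27.4% and 25.7% in shAdar2, against 28.1% and 27.5% in shZfr, and was lower in shAdar2 without overlap. Site chr17:39980697, one of the 20 called higher, had 20.6% and 19.7% in shAdar2, against 18.05% and 18.06% in shZfr. Within shAdar2 replicate 1 it stood at 17.4%, 24.2% and 17.8% in libraries 1-1, 1-2 and 1-3. Libraries 1-1 and 1-3 thus lay below both shZfr samples. Its levels were 16.6% and 22.2% in shControl1, 19.1% and 19.0% in shControl2 and 23.6% and 15.9% in shAdar1. Site chr17:39985500 had 10.4% and 10.8% in shAdar2, against 8.35% and 9.12% in shZfr, also higher without overlap. Without the 3 sites the share was 1.81% and 2.02% in shAdar2, against 1.28% and 1.3% in shZfr, a difference of 0.624 points. The mean level over sites, which weights each site equally, was 2.38% and 2.61% in shAdar2, against 1.69% and 1.69% in shZfr. Over the 1582 sites with 10 reads in both control groups as well, the difference from the own control was -1.52 points in shAdar2 and -0.969 points in shZfr, so the direct difference of 0.807 points became a net difference of -0.553 points.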

How the data were processed

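RNA of 12 libraries (10 samples, 5 groups) was analysed from deposited files of 2 kinds. Gene tables hold RSEM expected counts (estimated reads per gene), which the authors deposited without normalisation. Site tables hold, per the file headers, counts of reads showing the unedited (A) or edited (G) base, and a deposited fraction, the editing level, which matched G/(A+G) within rounding in all 447364 rows. The submitters' processing notes name mm9 and, without roles, RSEM 1.2.30, DESeq2 1.20.0, SAMtools 1.4, Trim Galore 0.4.5 and STAR 2.5.4b. How sites were chosen, and whether counting used strand, is not given in the sources read, so antisense or overlapping genes cannot be told apart. Per the labels' protocols, ribosomal RNA was removed with antisense oligonucleotides and RNase H. Expected counts per library ran between 1.58e+07 and 2.97e+07.

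The 3 technical libraries of shAdar2 replicate 1 were summed. Expected counts were rounded, filtered (filterByExpr), scaled (TMM) and tested by the quasi-likelihood F test of edgeR 4.0.16 under R 4.3.3, fitted to the 10 samples together; SE is the log2 fold change over the root of F. Sites were tested by edgeR on A and G reads of the 4 samples, with a coefficient per library. Calls are at a Benjamini-Hochberg adjusted p under 0.05 across every feature tested. Both scripts were tested on simulated data. The genes named are the ADAR and DZF-domain list, the 10 largest called changes in each direction (at least 5 CPM in the higher group, groups apart) and the genes with the lowest p from 22 gene lists and 6 marker lists; further list members, and sites beyond the largest called differences (at most 2 per cluster), were picked after their values were seen. Some genes that these rules name are not reported here. The comparison, its members and the lists were chosen with earlier results of these data known. Alternatives were DESeq2 1.42.0, other size factors, no filter, other read minimums, a replicate block, leaving out each sample, single technical libraries and differences net of the own controls.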

Additional observations from a re-analysis of the deposited data

How the results depend on the processing

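Counts of genes kept within 1.5 times of 4708 higher and 4234 lower under DESeq2, other size factors, no filter, single technical libraries and library 1-2 left out. Net of each group's own control 2792 were higher, and with at least a 2-fold change 2553 were higher and 2175 lower. Leaving out 1 sample gave 3168 to 4965 higher and 3394 to 4679 lower. The replicate numbers did not pair the samples: same-numbered samples' deviations correlated at -0.05 over 13231 genes. With the number as a block the gene counts were 4666 and 4276, and the site counts fell to 1 higher and 0 lower.

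Site calls depended on nearly every setting. The 20 higher sites became 12 at 20 reads, 7 at 30 reads, 40 with Fisher's exact test on pooled reads, 3 with at least 1 edited and 1 unedited read in all, 0 to 11 without 1 sample, 0 with library 1-2 alone, 7 with library 1-3 alone, 0 with the shZfr samples summed and 0 net of controls. The 3 lower sites became 7 with Fisher's exact test, 1 with at least 1 edited and 1 unedited read, and 0 without any 1 sample, with library 1-2 or 1-3 alone, or with the shZfr samples summed. Where edgeR called 0 sites in either direction, between 6 and 30 sites were higher and 2 to 3 lower at an unadjusted p under 0.05; net of controls 12 were higher and 26 lower, with 0 called higher and 4 called lower. Fewer sites or samples enter several of these settings. More sites, and so a wider adjustment of p, enter others. Against 228 in the main test there were 1832 without shAdar2 replicate 2 and 418 net of controls. With at least 1 edited and 1 unedited read there were 642. Otherwise the cause was not tested. All 23 sites were among those called by Fisher's exact test.

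The difference in the share of edited reads was 4.83 points at 20 reads, 5.44 at 30 reads, 3.35, 4.08 and 4.22 with library 1-1, 1-2 or 1-3 alone, 3.56 without library 1-2, 0.624 without the 3 deepest sites and 0.807 as a mean level. The difference in mean level was 0.596 points at 20 reads and 0.172 at 30 reads. The net log2 fold change of Zfr, 0.84, passed the test where the direct one did not. Net of controls these genes turned direction: Phlda3 (-0.29), Sesn2 (-0.30), Cplx2 (0.60), Miat (0.39), Rpl27 (-0.18), Rps19 (-0.23), Sdhb (-0.37), Fgfr3 (0.24), Sox9 (0.20) and Tyrobp (-0.67), and so did Bax (-0.38), Cdkn1a (-1.06) and Homer1 (0.05). So did the medians of the ADAR list (-0.068), p53 targets (-0.57), immediate early (-0.18), ribosomal (-0.34), respiratory chain (-0.22), astrocyte (1.5) and oligodendrocyte (1.77) genes. With library 1-2 alone the medians of the ADAR list (-0.0093), glutamate receptors (-0.036) and microglia markers (-0.23) turned, and without shAdar2 replicate 2 that of p53 targets (-0.017). Site chr3:80510834 stood at -1.3 to 0.41 on the log2 odds scale when 1 sample was left out, the highest without shAdar2 replicate 1. Among the named genes' other values, 2121 kept direction and side of the threshold, 53 lost the call and 7 gained it; among sites 44 kept it and 71 lost it. Alternatives added after seeing the data were the net difference, library 1-2 left out or as its own sample, the summed shZfr samples, the gene Rn45s left out, and the 3 deepest sites left out.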
